A study of Homo sapiens with 2 samples.

Results

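Iron uptake, sensing and mitochondrial import were examined through 9 genes fixed by symbol: TFRC, CYBRD1, SLC11A2, SLC39A8, ACO1, IREB2, SLC25A37, ABCB6 and ABCB10. Of these, 8 were measured, out of 18377 genes on the array with a probe of a single gene symbol, and IREB2 was not analysed here. The 8 genes were represented by 9 probes, 1 each except SLC25A37 with 2, and the probes of a gene were averaged. The cells were K562, an established human leukaemia line driven by the fused kinase BCR-ABL1. Imatinib, which blocks that kinase, was given to both cultures at 2 µM for 6 h; 1 culture was grown in erythropoietin (EPO) and the other carried no EPO in its label and is read as the culture without it. The EPO dose was not given in the sources used here. No culture free of imatinib was analysed here, and a single cell line is a limited model of red cell precursors. There was 1 array per culture, so the differences below could not be set against a spread between replicates, and none was tested.

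Red cell precursors need more iron than most cells because haem is built around it. Iron bound to transferrin enters through the transferrin receptor, is released and reduced in the endosome, crosses the endosomal membrane through a metal transporter and is carried into mitochondria, where haem and iron-sulphur clusters are made. The iron regulatory proteins, encoded by ACO1 and IREB2, sense iron and bind hairpins called iron-responsive elements: bound to the transferrin receptor mRNA they protect it from decay, and bound to the ferritin mRNAs they block translation. EPO, through its receptor, drives the survival and maturation of these precursors.

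Each deposited value is the deviation of a probe, read as log2, from a baseline set by the authors that is unknown here, so transcript abundance cannot be read from it. The log base was not given in the sources used here. Folds rest on taking it as 2. On the array with EPO the 8 genes all lay slightly above the baseline, between 0.038 and 0.22 with a median of 0.096. On the array without EPO all 8 lay below it, between -1.44 and -0.43 with a median of -0.92. Among all genes, 38.8% showed this arrangement, and among 245 genes of general cellular machinery (such as nuclear pore, splicing, proteasome and respiratory chain subunits) 71.8% did.

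**Figure D1:**
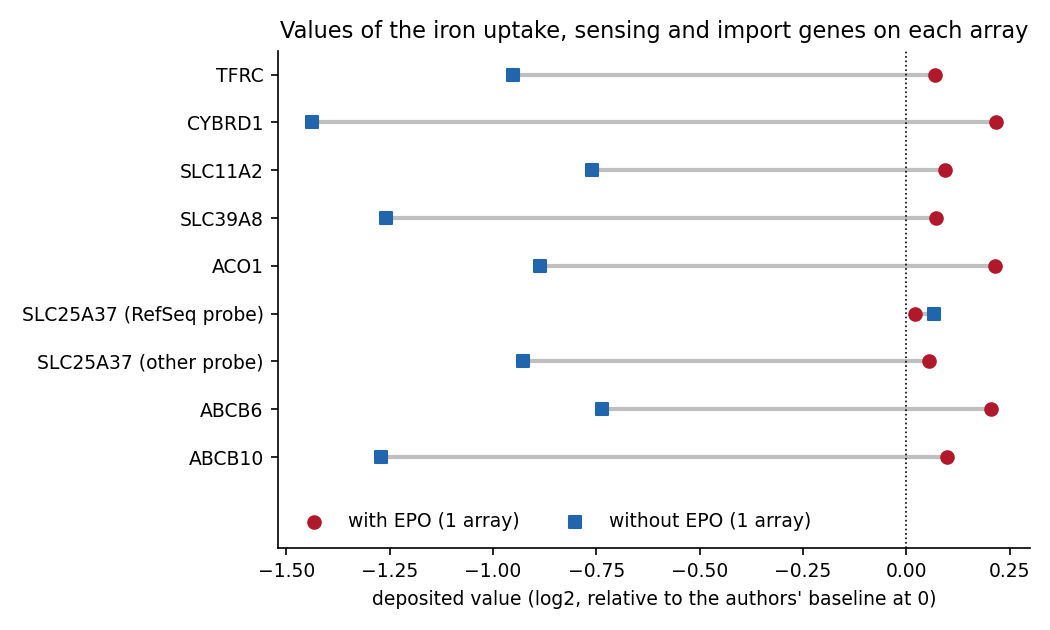
Deposited values, read as log2, of the 9 probes of the 8 measured genes, relative to the authors' baseline at 0. Each probe has 1 point for the array with EPO and 1 square for the array without EPO. The points with EPO lie close to the baseline and the squares without EPO lie well below it, except for the SLC25A37 probe with a RefSeq transcript, at 0.021 and 0.066.

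Taking the value with EPO minus the value without EPO, 5 of the 8 genes were higher with EPO by 2-fold or more and 0 were lower by as much, against 6.19% and 0.898% of all genes. The median difference was 1.06 in the 8 genes and -0.047 over all genes. Machinery genes also lay above the overall median, at 0.44, and 35 of the 245 (14.3%) passed 2-fold in that direction. These 8 genes were named with earlier results of the same arrays in view, so their count is a description. RNA came from whole cultures, in which fewer cells that express a gene and less of its RNA per cell cannot be told apart.

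Promoter sequence is given for 4 of these genes, whose differences had the same sign, because their windows hold a match to a motif of GATA, STAT, hypoxia-inducible or MYC factors. Windows of 250 bases upstream of the outermost RefSeq start, on the strand of the gene, were available for 7 of the 8 genes. In each line the letters are lower case and capitals mark every match to 5 searched motifs. TFRC lies at chr3:196082091-196082340, SLC39A8 at chr4:102345483-102345732, ABCB6 at chr2:219218959-219219208 and ABCB10 at chr1:229558708-229558957 (GRCh38.p14, RefSeq, all on the minus strand).
TFRC: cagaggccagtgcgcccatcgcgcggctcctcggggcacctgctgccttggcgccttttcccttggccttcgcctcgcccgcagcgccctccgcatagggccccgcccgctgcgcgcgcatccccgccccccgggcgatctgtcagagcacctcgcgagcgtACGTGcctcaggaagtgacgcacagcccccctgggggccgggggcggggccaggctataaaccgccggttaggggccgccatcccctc
SLC39A8: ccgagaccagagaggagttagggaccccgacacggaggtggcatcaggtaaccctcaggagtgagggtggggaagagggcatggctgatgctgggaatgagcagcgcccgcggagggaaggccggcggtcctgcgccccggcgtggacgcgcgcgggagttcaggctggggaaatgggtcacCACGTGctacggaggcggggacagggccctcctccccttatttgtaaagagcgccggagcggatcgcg
ABCB6: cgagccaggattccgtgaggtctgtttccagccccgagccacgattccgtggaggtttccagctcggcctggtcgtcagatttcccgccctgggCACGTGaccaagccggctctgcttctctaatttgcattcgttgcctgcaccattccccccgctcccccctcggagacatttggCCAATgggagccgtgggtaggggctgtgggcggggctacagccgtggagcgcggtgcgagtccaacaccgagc
ABCB10: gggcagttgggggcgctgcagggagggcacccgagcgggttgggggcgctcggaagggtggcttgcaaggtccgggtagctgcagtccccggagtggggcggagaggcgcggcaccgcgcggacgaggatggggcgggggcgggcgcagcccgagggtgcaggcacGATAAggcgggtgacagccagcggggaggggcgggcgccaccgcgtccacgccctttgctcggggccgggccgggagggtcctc

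The motifs were searched on both strands. The core of the hypoxia-inducible factor site, ACGTG, was found in TFRC at positions -88 to -84 from the start and also in SLC39A8 and ABCB6, which makes 3 of 7 windows against 18.6% of 27305 promoter windows. In SLC39A8 and ABCB6 the match lay inside CACGTG, the E-box bound by MYC, so these overlap. The E-box was present in 2 of 7 windows and in 6.46% of all windows. GATAA, the core bound by the erythroid factor GATA1, was found in ABCB10 at positions -84 to -80, in 1 of 7 windows against 21.0% overall. TTCNNNGAA, the site of STAT factors such as the STAT5 proteins that act below the EPO receptor, was in 0 of 7 windows and in 6.76% of all windows. CCAAT was in CYBRD1, SLC11A2 and ABCB6, 3 of 7 windows against 33.0%. By base composition, 5 of the 7 windows lay above 57.6%, the median G and C content of all windows. They were TFRC at 74.4%, SLC39A8 at 67.6%, ACO1 at 76.8%, ABCB6 at 64.4% and ABCB10 at 77.2%. CYBRD1 at 47.6% and SLC11A2 at 41.6% lay below it. The part of base composition in the matches was not tested. A match is only a run of letters in the window, and binding was not measured here.

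Among the genes of cellular uptake, the largest difference was that of CYBRD1, which encodes duodenal cytochrome b, a membrane reductase that turns ferric into ferrous iron. It stood at 0.22 with EPO and -1.44 without, a difference of 1.65 (3.14-fold), which placed it at rank 46 of the 18377 genes. Only 2 of the 245 machinery genes had a larger difference. SLC39A8, the importer ZIP8 that carries zinc, manganese and ferrous iron, stood at 0.073 with EPO and -1.26 without. Its difference of 1.33 (2.52-fold) lay at percentile 98.4 of all genes and 95.9 of machinery genes. Both genes thus lay near the upper end of all genes measured.

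TFRC, the transferrin receptor and main iron entry route of erythroid cells, stood at 0.069 with EPO and -0.95 without. The difference of 1.02 (2.03-fold) only just passed 2-fold, at percentile 94.3 of all genes and 87.8 of machinery genes. SLC11A2, the divalent metal transporter DMT1 that moves ferrous iron out of the endosome, stood at 0.094 with EPO and -0.76 without, a difference of 0.86 (1.81-fold). It did not pass 2-fold and lay at percentile 78.4 of machinery genes. Some transcripts of SLC11A2 carry an iron-responsive element and others do not. Its only probe lists 19 accessions, so these isoforms could not be told apart.

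Of the iron sensors, ACO1 was measured. It encodes the cytosolic aconitase that becomes iron regulatory protein 1 when it loses its iron-sulphur cluster. ACO1 stood at 0.21 with EPO and -0.89 without, a difference of 1.10 (2.14-fold) at percentile 95.7 of all genes and 90.2 of machinery genes. Whether the protein acted as an enzyme or as an RNA-binding protein cannot be read from transcript values.

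Among the mitochondrial genes, ABCB10 showed the largest difference. It encodes a transporter of the inner mitochondrial membrane needed for haem production in erythroid cells, which associates with mitoferrin-1. ABCB10 stood at 0.098 with EPO and -1.27 without, a difference of 1.37 (2.58-fold) at percentile 98.7 of all genes and 96.3 of machinery genes. ABCB6, a porphyrin-associated transporter that carries the Langereis blood group, stood at 0.20 with EPO and -0.74 without. The difference of 0.94 (1.92-fold) fell just short of 2-fold, close below that of TFRC, and without replicates the order of these neighbours has no measure of error.

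The mean of SLC25A37, which encodes mitoferrin-1, the iron importer of the inner mitochondrial membrane in erythroid cells, joined a pair of probes that disagreed. The probe that lists the RefSeq transcript among its 7 accessions stood at 0.021 with EPO and 0.066 without, a difference of -0.045. The other probe, which lists 1 accession outside RefSeq, stood at 0.054 and -0.93, a difference of 0.98 (1.97-fold). Their mean difference of 0.47 (1.38-fold), the smallest of the 8 genes, therefore rests on the second probe. The gap of 1.03 between them was wider than in 91.4% of the 685 genes with several probes, where the median gap was 0.18. SLC25A28, the paralogue mitoferrin-2 of most other tissues, stood at 0.24.

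The count of 5 genes past 2-fold depended on how the arrays were scaled against each other. With the machinery median subtracted, CYBRD1 alone passed 2-fold, at 1.21, against 0.784% of all genes, while ABCB10 stood at 0.93, SLC39A8 at 0.89, ACO1 at 0.66, TFRC at 0.58, ABCB6 at 0.50, SLC11A2 at 0.41 and SLC25A37 at 0.025. With the median of 460 genes of silent families (for example the odorant receptors and beta-defensins, which most cells do not express), -0.32, subtracted instead, 7 of 8 passed, against 15.0% of all genes. Each of these scalings subtracts 1 constant from all genes, so their order could not change and CYBRD1 had to stay highest. The silent-family median is negative, so subtracting it raised every value, and only the machinery median could have moved a difference below 0. All 8 differences stayed above 0 under each scaling. With the machinery median subtracted SLC25A37 did so only by 0.025, as the mean of 2 probes that disagreed. Machinery genes also differed between the arrays, with a median of 0.44, and the part of that in the values of the iron genes was not tested. With 1 array per group, EPO and any difference between the arrays cannot be told apart.

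**Figure D2:**
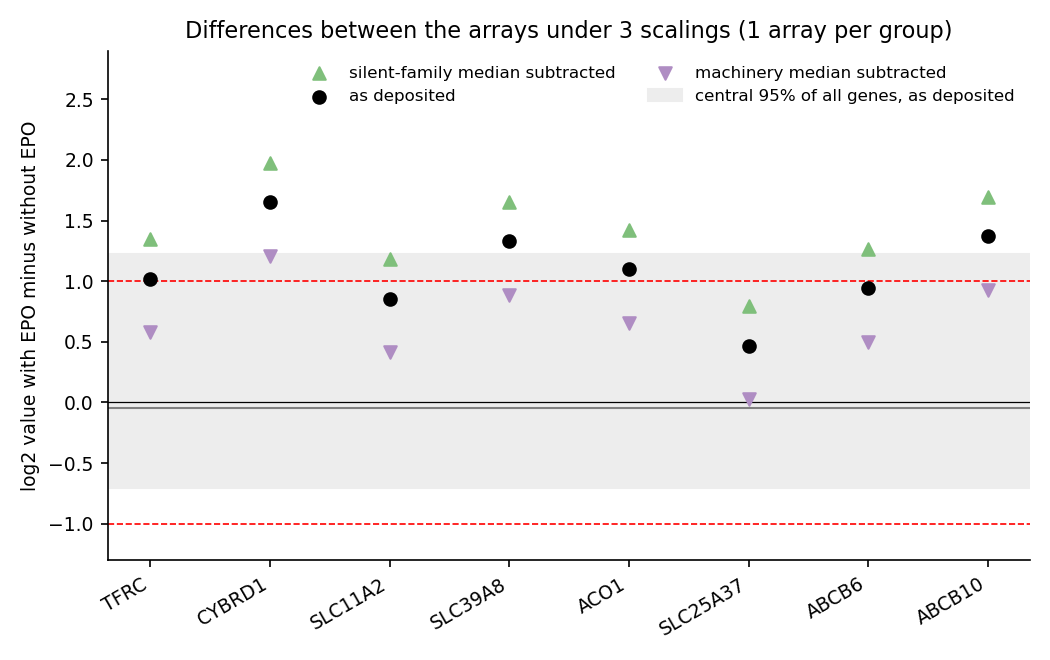
Difference of each of the 8 genes (log2 value with EPO minus without EPO, 1 array per group) as deposited (circles), with the machinery median subtracted (downward triangles) and with the silent-family median subtracted (upward triangles); the dashed lines mark 2-fold, the grey band the central 95% of all genes (-0.70 to 1.23) and the grey line their median. CYBRD1 lies above 2-fold under all 3 scalings, whereas SLC25A37 lies near 0 with the machinery median subtracted.

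The wider iron pathway was described by 75 measured genes of 9 fixed lists. Of these, 7 (9.33%) passed 2-fold in the direction of EPO and 1 passed it in the other, with a median difference of 0.22. That share is near the 6.19% of all genes.

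In the transferrin cycle, 1 of 10 genes passed 2-fold. VPS35, a retromer subunit that returns membrane cargo from endosomes, differed by 1.58 (2.99-fold), with 0.17 with EPO and -1.41 without. STEAP3, the endosomal ferric reductase of erythroid cells, differed by 0.85, close to SLC11A2, which works with it. SNX3, a sorting nexin that recycles the transferrin receptor, differed by 0.72, and PICALM, a clathrin adaptor for its endocytosis, by 0.51. In contrast, TFR2, the second transferrin receptor, differed by 0.021, and HFE, a partner of both receptors, by -0.19. MCOLN1, an endolysosomal cation channel, was lowest at -0.21. The list's median was 0.48, near that of machinery genes.

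Of the 8 other reductases and importers, 7 lay below 0, with a median of -0.20 and none past 2-fold. Over all genes, 45.4% lay above 0, and the median of the silent families was -0.32. The metalloreductases STEAP1, STEAP2 and STEAP4 stood at -0.12, -0.24 and -0.21, and LCN2, which binds bacterial iron carriers, was lowest at -0.46. SLC39A14, the importer ZIP14 and the nearest functional relative of SLC39A8, was the exception at 0.45.

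Storage and export genes were mixed, with a median of 0.26 and 3 of 12 past 2-fold, against 6.19% of all genes and 14.3% of machinery genes. HEPH, a ferroxidase that partners the iron exporter, differed by 1.12 (2.17-fold), SLC40A1, the exporter ferroportin, by 1.09 (2.13-fold), and NCOA4, which delivers ferritin to lysosomes for iron release, by 1.02 (2.02-fold). FLVCR1, a haem and choline transporter, stood at 0.93. FTL, the ferritin light chain, stood at -0.063, with -0.044 with EPO and 0.019 without; it has near-identical processed copies in the genome, so its value is uncertain. The haem-degrading enzyme HMOX1 was lowest at -0.21. TFRC and FTL, which the iron regulatory proteins control in opposite ways, thus differed by 1.02 and -0.063, but that control of ferritin acts on translation and was not measured.

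Besides TFRC and SLC11A2, 6 transcripts known to carry an iron-responsive element were measured, and SLC40A1 was the 1 of 6 past 2-fold. ALAS2, the erythroid first enzyme of haem synthesis, stood at 0.84 and EPAS1, a hypoxia-inducible factor, at 0.21. CDC42BPA stood at 0.16, and CDC14A and FTL were just below 0. Of the 7 genes that control the iron regulatory proteins, 0 passed 2-fold and the median was 0.67. FBXL5, the iron-sensing ubiquitin ligase subunit that marks iron regulatory protein 2 for destruction, was lowest at -0.20, while SKP1 and CUL1, general subunits of its complex, stood at 0.91 and 0.67. CIAO2A, an iron-sulphur assembly factor that acts on iron regulatory protein 1, stood at 0.73.

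Among 4 factors known to promote decay of the transferrin receptor mRNA, ZFP36, the AU-rich element binding protein tristetraprolin, was the 1 gene past 2-fold lower, at -1.72 (3.30-fold lower). It stood at -0.40 with EPO and 1.33 without, so its values ran opposite to those of TFRC. The endonuclease ZC3H12A, or Regnase-1, stood at -0.058, and the roquins RC3H1 and RC3H2 at 0.16 and 0.33. Whether ZFP36 bears on TFRC was not tested.

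Inside mitochondria, none of 17 genes of iron handling and iron-sulphur assembly passed 2-fold, and the median was 0.26. The highest were ISCA1 at 0.85, LYRM4 at 0.80, the chaperone HSPA9 at 0.80 and the scaffold ISCU at 0.78. The desulphurase NFS1, which works with LYRM4 on that scaffold, stood at 0.22. Below 0 lay, among others, ISCA2, which pairs with ISCA1 and was lowest at -0.26, IBA57 at -0.19 and BOLA3 at -0.16. SLC25A39, a mitochondrial glutathione carrier, stood at 0.75 and TMEM14C, which moves porphyrin precursors, at 0.46. In the cytosolic assembly pathway 1 of 8 passed, the scaffold NUBP1 at 1.15 (2.22-fold), with a median of 0.46 and the reductase NDOR1 lowest at -0.42.

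Haem synthesis, where the imported iron is used, had a median of 0.79. Of its 8 enzymes 2 passed 2-fold, against 6.19% of all genes and 14.3% of machinery genes. They were CPOX at 1.29 (2.45-fold) and FECH, which inserts iron into the porphyrin ring and associates with ABCB10 and mitoferrin-1, at 1.15 (2.23-fold). ALAD was lowest, at -0.035, and the other 7 lay above 0. With the machinery median subtracted, CPOX and FECH no longer passed 2-fold. Of the 75 pathway genes VPS35 alone was then higher by 2-fold or more, against 0.784% of all genes. ZFP36, already lower, could only move further down under that subtraction, to -2.16.

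**Figure D3:**
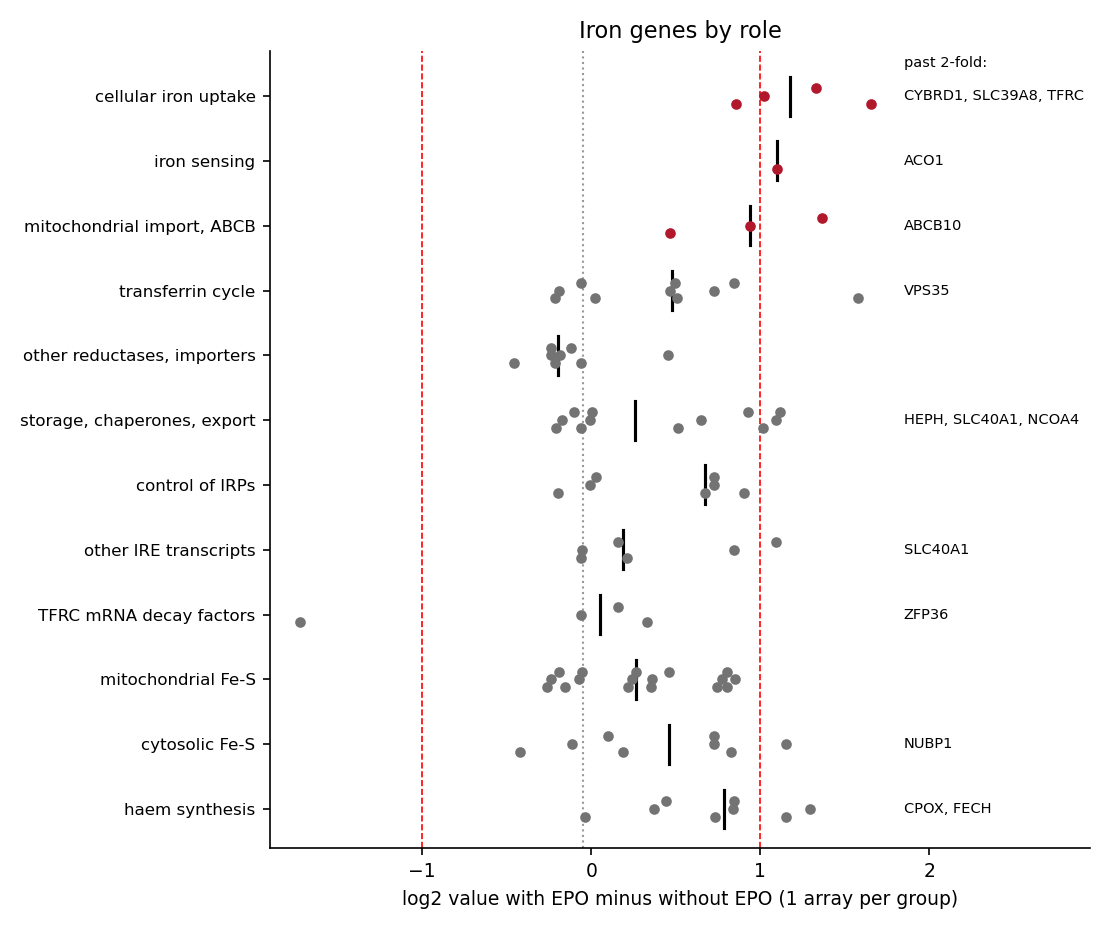
Difference of each iron gene (log2 value with EPO minus without EPO, 1 array per group) by role; red points are the 8 genes of uptake, sensing and mitochondrial import, grey points the other pathway genes, black bars the list medians, the dotted line the median of all genes and the dashed lines 2-fold, with genes past it named at the right. The 8 genes lie between 0.47 and 1.65, while the medians of the other lists run from -0.20 to 0.79.

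Relatives in sequence were compared for 6 of the 8 genes, all but TFRC and ACO1. In the ABCB family ABCB10 and ABCB6 ranked 1 and 2 of 8. The next was ABCB9 at 0.21, and the other five lay between -0.34 and -0.20, among them ABCB8, also mitochondrial, and ABCB1, the multidrug transporter. CYBRD1 was the highest of 5 cytochrome b561 genes, followed by the lysosomal reductase gene CYB561A3 at 0.72. SLC39A8 ranked 2 of 14 SLC39 transporters, behind SLC39A9, a zinc transporter of the Golgi, at 1.71 (3.27-fold), and the family median was 0.34. SLC11A2 stood at 0.86 and its macrophage relative SLC11A1 at -0.42. In contrast, SLC25A37 ranked 23 of 51 SLC25 carriers, whose median was 0.32. In that family 4 genes (7.84%) passed 2-fold, near the 6.19% of all genes. They were SLC25A40 at 1.33, SLC25A20 at 1.24, SLC25A32 at 1.07 and SLC25A21 at 1.01. With the machinery median subtracted, 0 of the 51 passed.

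**Figure D4:**
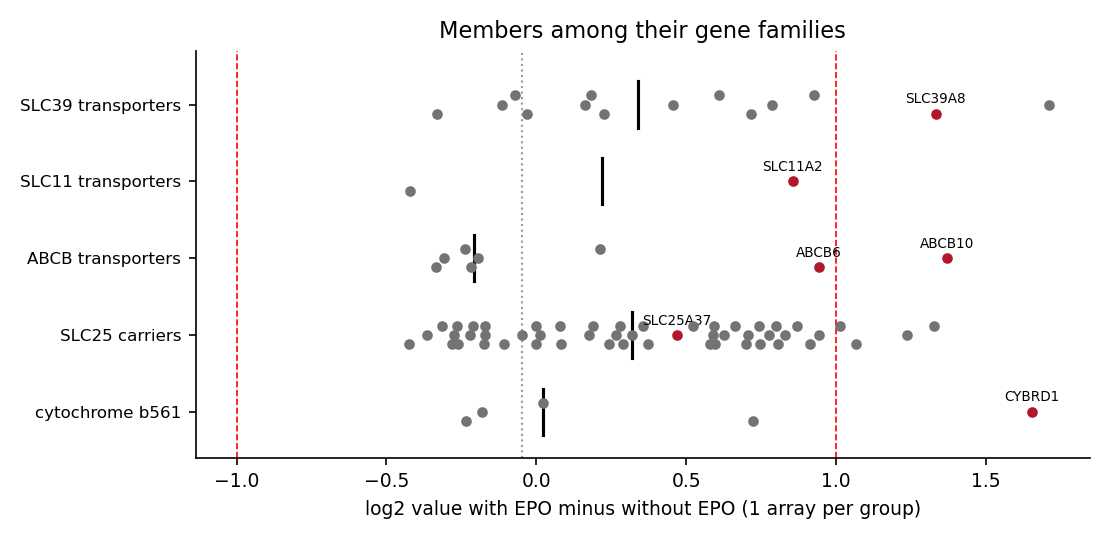
Difference of each gene (log2 value with EPO minus without EPO, 1 array per group) in the families of the named genes; red points are the members, grey points their relatives, black bars the family medians, the dotted line the median of all genes and the dashed lines 2-fold. ABCB10 and ABCB6 lie above the rest of their family, while SLC25A37 lies in the middle of the 51 carriers.

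The labelled cell type could not be checked by presence of its markers, since centred values carry no level. As differences, 9 measured erythroid markers had a median of 0.25 with 2 past 2-fold higher, the membrane proteins SLC4A1 at 1.19 and RHAG at 1.12, and GATA1 stood at 0.25. The globin genes HBE1, HBB and HBZ stood at 0.11, -0.00076 and -0.040, and HBB and HBZ were the 2 of 9 below 0. Of 7 megakaryocyte markers 6 lay below 0 (median -0.13, from GP9 at -0.37 to ITGB3 at 0.080), as did 6 of 7 granulocyte and monocyte markers (median -0.19) and 7 of 7 lymphoid markers (median -0.36, from CD7 at -0.67 to MS4A1 at -0.20). Over all genes, 45.4% lay above 0, and the median of the silent families was -0.32. The granulocyte and monocyte list held 1 gene past 2-fold in each direction, LYZ at 1.05 and CEBPA at -1.07. The part of these differences in the values of the iron genes was not tested.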

How the data were processed

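Total RNA of 2 K562 cultures was measured on Affymetrix Gene ST arrays, 1 for each culture, per the labels. The authors deposited values of 28869 probes by 2 arrays, read here as log2 and centred on an unknown baseline. A probe here means 1 row of the deposited values, not a single oligo on the array. The background correction, summarisation, normalization and software, like the log base, were not given in the sources used here. Taking the base as 2 could not be tested. Probe standard deviations were 0.134 with EPO and 0.431 without EPO, so the arrays did not spread equally. Probes were named from the platform annotation (19310 with 1 gene symbol, 1752 with several, 7807 not listed), and 19279 of the 19310 were updated by Entrez ID through RefSeq (GRCh38.p14). Probes of a gene were averaged. A gene was called by size, at 2-fold (1 on the log2 scale), with no test. The number of arrays limits the precision. All 9 members were named, as were the genes past 2-fold of each list and otherwise its highest and lowest gene; other named genes were picked with their values in view. The members and lists were chosen with earlier results of these data known. Alternatives were other scalings, probe rules and fold thresholds. The calling step was run on simulated data with planted shifts past 2-fold and little noise, which checks the code only. It gives no measure of error for the calls on these arrays. Promoter windows were the 250 bases before the outermost RefSeq start. Python 3.11.15, NumPy 2.4.6 and pandas 2.3.3 were used.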

Additional observations from a re-analysis of the deposited data

How the results depend on the processing

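The median difference of the 8 genes was 1.06 as deposited, 1.11 with the median of all genes subtracted, 0.62 with the machinery median, 1.38 with the silent-family median and 0.95 with the arrays scaled to one standard deviation. The count of genes at least 2-fold higher was 5 as deposited, 1 with the machinery median subtracted, 3 with equal standard deviations (CYBRD1, ACO1 and ABCB10, with SLC39A8 at 0.98 and TFRC at 0.77; 4.02% of all genes) and 1 at a 3-fold threshold (0.365% of all genes). It was 5 under each rule for several probes, with 6.11% to 6.39% of all genes, 5 with the median of all genes subtracted (7.17% of all genes), 7 with the silent-family median and 7 at a 1.5-fold threshold (18.1% of all genes). The count of genes at least 2-fold lower was 0 under every setting run. SLC25A37 stood at -0.045 with the probe of smallest difference and at 0.98 with the probe of largest difference. It also stood at -0.045 with probes that list a RefSeq transcript, a rule added after seeing the data. Of the 8 genes only SLC25A37 had several probes, and both of its probes fell short of 2-fold. The rules for several probes therefore could not change either count of these genes past 2-fold. A filter on low values could not be run on centred values, and no pseudocount applies to log values. No paired analysis was possible because each group has 1 array.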

Other observations

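The baseline lay nearer to the array with EPO in 9 of the 9 probes of the iron genes and in 80.4% of all probes. A gene whose values mirror each other around 0 has its baseline midway between the arrays, which was the case, within 1e-05, in 0 of the 9 probes and in 2.18% of all probes. Of the 75 other pathway genes, 3 had mirrored values and were named after these were seen. They were HAMP, the hormone hepcidin that blocks iron export, at -0.088 with EPO and 0.088 without, HSCB, a co-chaperone of iron-sulphur transfer, at -0.028 and 0.028, and HERC2, a ubiquitin ligase, at 0.014 and -0.014.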
